A study of Mus musculus with 6 samples.

Results

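The growth hormone and IGF1 axis of the liver was followed through 10 genes: the growth hormone receptor Ghr, the transcription factors Stat5a and Stat5b, the hormone gene Igf1 and its carriers Igfals, Igfbp1 and Igfbp2, the feedback inhibitors Socs2 and Cish, and the repressor Bcl6. Members were the rows of the count table whose gene name equals one of these symbols, and 1 row was found for each of the 10, out of 25904 genes in all. All 10 passed the filter on low counts, as did 14606 genes in total. The livers came from C57BL/6J mice, 3 wild type for Ptprd (Ptprd+/+, called WT) and 3 heterozygous for it (Ptprd+/-, called Het). Ptprd encodes the receptor-type protein tyrosine phosphatase delta. The design of the altered allele, and whether it is altered in every tissue, are not given in the sources used, nor are age, feeding state and hour of collection. Polyadenylated RNA was sequenced from strand-specific libraries, and expression is given as CPM, counts per 1000000 counts of the library.

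Growth hormone from the pituitary binds its receptor on hepatocytes and, through the kinase JAK2, activates STAT5A and STAT5B, which enter the nucleus and switch on Igf1, Igfals, Socs2 and Cish. SOCS2 and CISH then damp the receptor, while IGF1 leaves the liver bound to carrier proteins. In rodents the hormone is released in pulses in males and more evenly in females, and many sex-biased liver genes follow that pattern. All 6 libraries had the X-linked RNA Xist, at 273 to 479 CPM, and no more than 1 count of the Y-linked gene Ddx3y, the profile of female tissue.

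Library depth lay between 37924266 and 72954187 counts. Ptprd had 127 to 132 CPM in the WT libraries and 54.1 to 78.1 CPM in the Het libraries, without overlap (log2 fold change -0.99, adjusted p 0.298 by edgeR's quasi-likelihood test and 2e-06 by DESeq2). Defining hepatocyte genes were high everywhere, with the 10 listed markers summing to between 128030 and 152670 CPM in WT and between 151190 and 183670 CPM in Het. In bulk liver, fewer cells of a type and less RNA per cell cannot be told apart for any gene below. Clock genes set Het 2 and Het 3 apart from the other libraries. Of 13 on the list 8 had a positive and 5 a negative log2 fold change (median 0.33, or -0.03 without Het 2). At an unadjusted p under 0.05 (edgeR) Nr1d1 and Dbp were higher and Clock and Cry1 lower, against 3.39% and 3.77% of all genes. That count was 1 higher and 1 lower without Het 2, and 7 higher and 5 lower without Het 1. Dbp, a transcription factor at the output of the clock, had 18.9, 29.6 and 14.4 CPM in the WT livers and 13.5, 129 and 122 CPM in the Het livers. Arntl, the core activator that runs opposite to it, had 17.2, 11.8 and 19.7 CPM in the WT livers and 21.4, 2.41 and 1.92 CPM in the Het livers. The part that this split plays in the values below was not tested beyond fits without Het 2 and Het 3 or with a clock index as a covariate.

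STAT5 dimers bind a palindrome, TTCNNNGAA, and BCL6 recognises closely related letters. It was searched on both strands of the RefSeq promoter windows (GRCm38.p6, the mm10 build), which run from 250 bases before to 50 bases after a transcript start. Of the 10 members 9 had such windows, 16 windows in all, and Socs2 had none. The palindrome was in a window of 3 of the 9 genes, Igfals, Cish and Bcl6, beside 9.55% of all 27025 genes with a window. These 3 are shown because they are all the members with a match, whatever their levels in the libraries. Capitals mark the palindrome, and each stretch is written 5′ to 3′ on the strand of the gene. Introns and exons are those of GENCODE vM21, whose Igfals model starts at 24865997, before the start of 24878770 in the deposited table. Both Igfals stretches are therefore intronic in the GENCODE model and upstream of the deposited one.
Cish, chr9:107296654-107296683, plus strand, at the start site in an annotated untranslated exon: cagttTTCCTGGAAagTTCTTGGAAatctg
Igfals, chr17:24877594-24877641, plus strand, in an annotated intron: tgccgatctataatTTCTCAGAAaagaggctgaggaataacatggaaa
Igfals, chr17:24878148-24878206, plus strand, in an annotated intron before a later start: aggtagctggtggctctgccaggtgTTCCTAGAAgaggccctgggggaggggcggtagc
Bcl6, chr16:23988937-23988995, minus strand, before the gene model: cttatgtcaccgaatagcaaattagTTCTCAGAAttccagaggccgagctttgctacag
Bcl6, chr16:23981338-23981476, minus strand, in an annotated intron before a start inside the gene: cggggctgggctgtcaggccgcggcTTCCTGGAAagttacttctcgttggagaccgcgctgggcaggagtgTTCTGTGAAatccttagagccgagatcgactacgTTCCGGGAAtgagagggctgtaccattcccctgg

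Cish carried 2 palindromes separated by 2 bases, and the window inside Bcl6 carried 3. A match is a description of letters and no evidence of binding. The same half-sites around a 4-base spacer, the form that STAT6 prefers, were in a window of 0 members and 8.01% of all genes. The forkhead-type letters TGTTTAC were in a window of 1 member, Igfals, and 4.05% of all genes. No match in these windows says nothing of sites elsewhere in a gene.

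None of the 10 members differed between the genotypes at an adjusted p of 0.05 by edgeR's quasi-likelihood test, and adjusted p values lay between 0.685 for Igfals and 0.981 for Igf1. Over all tested genes 0% passed that threshold. At an unadjusted p under 0.05 there was 1 member higher in Het, Igfals, against 3.39% of all tested genes, and 0 members lower, against 3.77%. DESeq2 called 0 members, with adjusted p values between 0.521 and 0.999, and 0.447% of all genes it gave a value. In the authors' deposited table the adjusted p was 0.489 for Igfals and up to 0.995 for the other members. Igfals was also the 1 member whose Het libraries all lay above all WT libraries, against 7.15% of all tested genes. No member had all Het libraries below WT, against 6.72%. These shares are of the same order as the background, and 5 members had a positive and 5 a negative log2 fold change, with a median of -0.03 (all tested genes -0.0039).

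**Figure D1:**
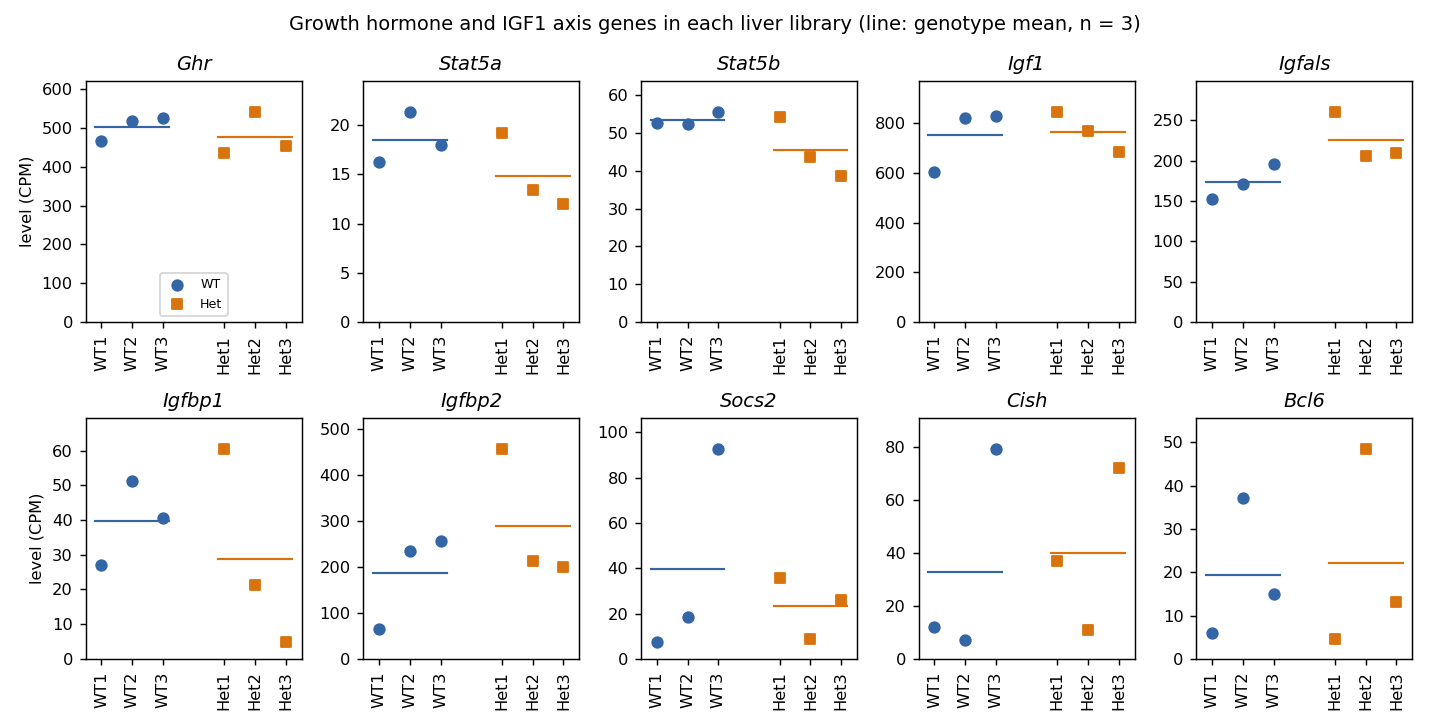
Level of each of the 10 axis genes in CPM (y axes start at 0 and differ between panels) in each of the 3 WT livers (circles) and 3 Het livers (squares), with a line at each genotype mean. Igfals is the only panel without overlap between genotypes, while Igfbp1, Socs2, Cish and Bcl6 range at least 10.7-fold over the 6 libraries.

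The receptor gene comes first in the pathway. Ghr (chromosome 15, 3317760 to 3583492, mm10) had 466, 517 and 525 CPM in the WT livers and 436, 539.95 and 453 CPM in the Het livers. Its highest and lowest libraries were both Het, so the genotypes overlapped. Het over WT had a log2 fold change of -0.08 (SE 0.12, 95% interval -0.35 to 0.20, edgeR adjusted p 0.897).

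Stat5b (chromosome 11, 100780731 to 100850724), the more abundant STAT5 gene here and the main mediator of growth hormone in liver, had 52.7, 52.3 and 55.4 CPM in WT. In Het it had 54.3, 43.6 and 38.6 CPM. Its neighbour Stat5a (chromosome 11, 100859351 to 100885169) had 16.2, 21.3 and 18.0 CPM in the WT livers and 19.1, 13.5 and 11.97 CPM in the Het livers. In both genes Het 2 and Het 3 lay below every WT library, while Het 1 lay within the WT range. Their log2 fold changes were -0.23 (SE 0.13) for Stat5b and -0.32 (SE 0.19) for Stat5a, with edgeR adjusted p values of 0.728 and 0.737. Without Het 1 they were -0.39 and -0.55, and with Het 1 as the only Het library 0.03 and 0.05, so the low values belonged to the pair of libraries that also stood apart in Dbp and Arntl. The paralogs share sequence, and how reads matching both were treated is not given in the sources used. Stat5a also overlaps the end of Stat3 on the opposite strand in GENCODE vM21.

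Igf1 (chromosome 10, 87858265 to 87937042), the circulating growth factor that liver supplies to the body, had 606, 819.7 and 829 CPM in the WT livers and 843, 769 and 683 CPM in the Het livers. WT 1 was the lowest library and Het 1 the highest, and the genotypes overlapped. WT livers averaged 752 ± 126 and Het livers 765 ± 80.3 CPM (SD, n = 3). The log2 fold change was 0.03 (SE 0.15, 95% interval -0.33 to 0.38) with an edgeR adjusted p of 0.981. The antisense gene Igf1os had at most 46 counts in a library.

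Igfals (chromosome 17, 24878770 to 24882008) encodes the acid-labile subunit, which holds IGF1 and its binding protein in a large complex in blood. It had 152, 171 and 196 CPM in the WT livers and 259.5, 205 and 209.8 CPM in the Het livers. Every Het library exceeded every WT library, with 196 CPM in WT 3 and 205 CPM in Het 2 closest to each other. Het livers averaged 225 ± 30.0 and WT livers 173 ± 21.9 CPM (SD, n = 3), 1.30-fold higher in Het. The log2 fold change was 0.38 (SE 0.14, 95% interval 0.06 to 0.69). By edgeR's quasi-likelihood test the unadjusted p was 0.0245 and the adjusted p 0.685. The unadjusted p (edgeR) was 0.0824 without WT 1, 0.0628 without WT 2 and 0.0885 without Het 1. The exact permutation p for 3 against 3 libraries was 0.1, the smallest this design allows. Igf1, which is induced through the same receptor, had a log2 fold change of 0.03. The difference between these 2 log2 fold changes was not tested.

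The binding proteins that answer to insulin and nutrition differed far more between livers. Igfbp1 (chromosome 11, 7197782 to 7202546), a short-lived IGF binder that insulin represses and fasting raises, had 27.0, 51.1 and 40.7 CPM in WT. In Het it had 60.4, 21.3 and 4.74 CPM. Het 1 was the highest of all 6 libraries and Het 3 the lowest, a 12.8-fold range inside 1 genotype, against 1.89-fold inside WT. The log2 fold change was -0.47 (SE 0.71, edgeR adjusted p 0.895), and without Het 3 it was 0.04.

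G6pc and Pdk4 were the 2 genes with an unadjusted p under 0.05 (edgeR) on a list of 12 insulin, FOXO1 and fasting genes, both lower in Het, against 3.77% of all genes. G6pc, the glucose-6-phosphatase that insulin represses, had 507, 563 and 458 CPM in the WT livers and 427, 316 and 217 CPM in the Het livers. Pdk4, a kinase of the pyruvate dehydrogenase complex that fasting raises, had 13.5, 31.9 and 16.5 CPM in the WT livers and 6.20, 6.24 and 2.94 CPM in the Het livers. For both, Het 3 was the lowest library, as it was for Igfbp1, and every Het library was under every WT library. Another gene of the list, Sirt1, did not overlap either, so 3 of 12 were below without overlap, against 6.72% of all genes. Of the 12 genes 4 had a positive and 8 a negative log2 fold change, with a median of -0.07 (0.07 without WT 1 and 0.04 without Het 1). By edgeR 0 passed the adjusted threshold, and DESeq2 called Pdk4. Igfbp1 itself did not share the separation by genotype, because Het 1 was its highest library.

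Among integrated stress response genes 7 of 8 were tested and 2 had an unadjusted p under 0.05, both higher in Het, against 3.39% of all genes. Trib3, a pseudokinase gene, had 1.76, 1.62 and 1.28 CPM in the WT livers and 2.36, 4.56 and 3.61 CPM in the Het livers. Ddit3, the gene of the transcription factor CHOP, had 5.45, 5.31 and 5.11 CPM in the WT livers and 8.997, 5.85 and 13.1 CPM in the Het livers. In these 2 genes every Het library exceeded every WT library, against 7.15% of all genes. By edgeR 0 passed the adjusted threshold, and DESeq2 called Trib3. Of the 7 genes 5 had a positive and 2 a negative log2 fold change, with a median of 0.18.

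Igfbp2 (chromosome 1, 72824503 to 72852474), an IGF binder that falls with insulin and growth hormone, had 66.0, 234 and 257 CPM in the WT livers and 456, 213 and 200.3 CPM in the Het livers. WT 1 was far below the other libraries and Het 1 far above, and the remaining 4 lay between 200.3 and 257 CPM. The log2 fold change of 0.64 (SE 0.50, edgeR adjusted p 0.78) was 0.15 without Het 1.

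The feedback inhibitors also differed widely between livers of the same genotype. Socs2 (chromosome 10, 95385362 to 95417180), whose protein limits signalling of the growth hormone receptor, had 7.42, 18.5 and 92.5 CPM in the WT livers and 35.9, 8.86 and 25.8 CPM in the Het livers. WT 3 and WT 1 were the highest and lowest of all 6, a 12.5-fold range within WT that enclosed every Het library. The log2 fold change was -0.75 (SE 0.84, 95% interval -2.67 to 1.18, edgeR adjusted p 0.858), and without WT 3 it was 0.85.

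Cish (chromosome 9, 107296026 to 107302784), the cytokine-inducible SH2 protein of the same family, had 11.8, 7.09 and 79.1 CPM in the WT livers and 36.9, 10.9 and 72.1 CPM in the Het livers. The WT range of 11.1-fold again enclosed every Het library. Its log2 fold change was 0.30 (SE 0.91, 95% interval -1.80 to 2.40, edgeR adjusted p 0.961), and it was 2.09 without WT 3 and -0.45 without Het 3. In both Cish and Socs2 the libraries WT 3, Het 1 and Het 3 were the highest and WT 1, WT 2 and Het 2 the lowest. The high and low libraries thus included both genotypes. Gm17040, an annotated pseudogene on the opposite strand across Cish, had 3 to 43 counts in a library, against 363 to 5373 for Cish.

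Bcl6 (chromosome 16, 23965052 to 23988852) encodes a repressor that growth hormone keeps low and that competes with STAT5 at shared sites. It had 5.95, 37.2 and 14.9 CPM in the WT livers and 4.53, 48.4 and 13.2 CPM in the Het livers. WT 2 and Het 2, which were both low in Cish, were its highest libraries, while WT 1 and Het 1 were its lowest and lay on opposite sides for Cish. The order of the libraries was therefore not simply the reverse of Cish. Its log2 fold change was 0.19 (SE 0.84, edgeR adjusted p 0.975). It was -1.11 without Het 2 and 1.09 without WT 2, so its sign depended on single libraries.

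**Figure D2:**
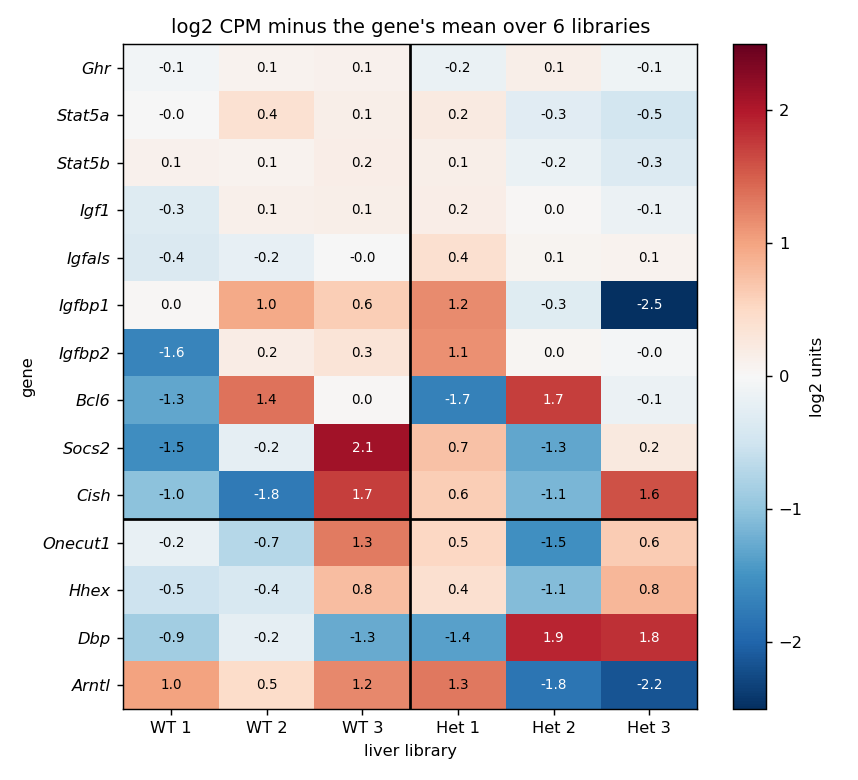
Heat map of log2 CPM minus the mean of the gene over the 6 libraries (columns), for the 10 axis genes and, under the line, 4 further genes. Socs2, Cish, Onecut1 and Hhex are above their means in WT 3, Het 1 and Het 3 and below them in WT 1, WT 2 and Het 2, while Dbp and Arntl set Het 2 and Het 3 apart. Onecut1 and Hhex were chosen with their values known.

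The members thus fell into 2 kinds by how far livers of one genotype differed. The pooled within-genotype SD of log2 CPM was 1.62 for Cish, 1.52 for Bcl6, 1.498 for Socs2, 1.34 for Igfbp1 and 0.91 for Igfbp2. Each of these 5 exceeded at least 98.9% of the 11988 genes with a mean of 1 CPM or more, and the median of those genes was 0.178. For Ghr, Stat5b, Igfals, Igf1 and Stat5a the SD was 0.13, 0.18, 0.18, 0.21 and 0.29, which placed them between the 32.1 and 77.6 percentiles. Ranking by a measure of spread uses no difference between the genotypes.

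**Figure D3:**
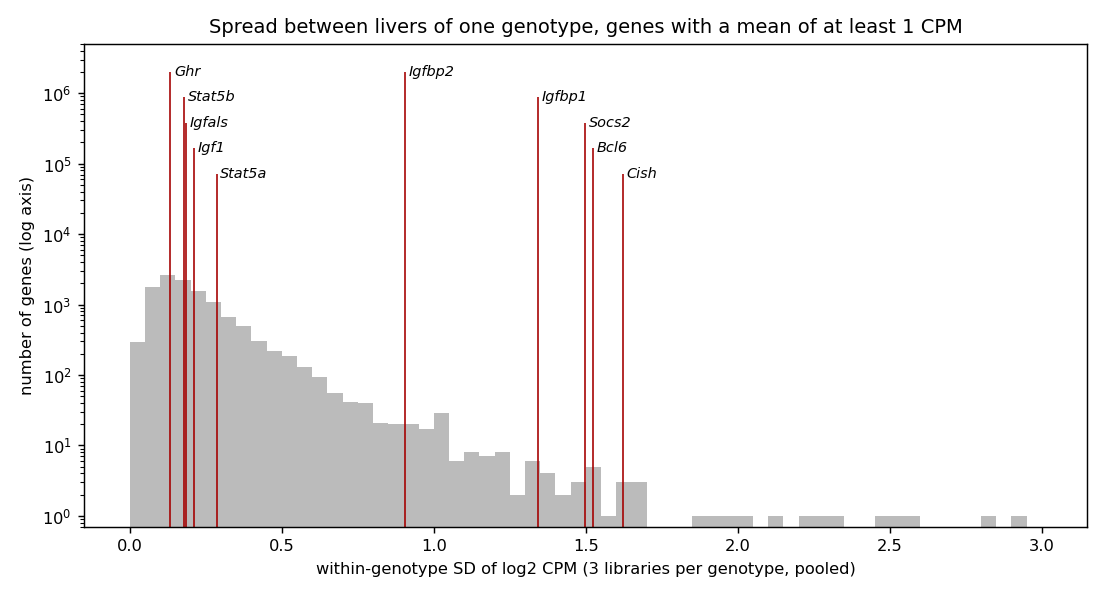
Number of genes (log axis) by pooled within-genotype SD of log2 CPM, for genes with a mean of at least 1 CPM, with the 10 axis genes marked by lines. Ghr, Stat5a, Stat5b, Igf1 and Igfals sit in the bulk at 0.13 to 0.29, and Igfbp2, Igfbp1, Socs2, Bcl6 and Cish in the far tail at 0.91 to 1.62.

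Per kilobase of median transcript length, a length deposited with the counts that need not be that of the liver transcript, Igf1 was the most abundant member at a mean level of 554 CPM per kb. Ghr followed at 411, Igfbp2 at 240, Igfals at 94.3, Socs2 at 35.6, Igfbp1 at 22.4, Cish at 13.2, Stat5b at 9.78, Bcl6 at 5.55 and Stat5a at 4.63 CPM per kb. Igf1 (443 to 617 CPM per kb) and Ghr (366 to 453) overlapped in their ranges over libraries, and Igfbp2 (66.6 to 460) overlapped Igf1, Ghr and Igfals. Stat5a (3.32 to 5.90) and Stat5b (7.63 to 10.9) did not overlap.

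Signalling around the receptor runs through JAK2, phosphatases and SOCS proteins. Of 18 listed partners and brakes, all tested, 10 had a positive and 8 a negative log2 fold change with a median of 0.0033. By edgeR 0 passed the adjusted threshold. At an unadjusted p under 0.05 (edgeR) there was 1 higher, Socs3, against 3.39% of all genes, and 0 lower, against 3.77%. Socs3, a cytokine feedback inhibitor that growth hormone and interleukin 6 both induce, had 4.84, 6.17 and 9.82 CPM in the WT livers and 7.68, 10.7 and 23.8 CPM in the Het livers, with Het 3 highest. Jak2, the receptor's kinase, chosen with its values known, had 18.3, 18.4 and 17.4 CPM in the WT livers and 13.5, 14.9 and 17.9 CPM in the Het livers.

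Of 14 further IGF ligands, receptors, binding proteins and proteases 9 were tested, Igf2, Pappa, Stc1 and Stc2 had too few counts, and Pappa2 was not analysed here. In the 9 there were 3 positive and 6 negative log2 fold changes with a median of -0.04 (-0.22 to 0.014 without single libraries), and 0 passed the adjusted threshold. Igfbp6, an IGF2-preferring binder, was the 1 gene at an unadjusted p under 0.05 (edgeR), lower in Het, against 3.77% of all genes. It had 1.22, 1.19 and 2.41 CPM in the WT livers and 1.07, 0.511 and 0.765 CPM in the Het livers. Of the 9 genes 1 was higher without overlap and 1 lower, Igfbp4 and Igfbp6, against 7.15% and 6.72% of all genes. The abundant binder Igfbp4, chosen with its values known, had 1441, 1542 and 1523 CPM in the WT livers and 1822, 1769 and 1709 CPM in the Het livers, 1.18-fold higher without overlap (edgeR adjusted p 0.698). Igfbp3, which joins IGF1 and the acid-labile subunit in the blood complex and was chosen likewise, had 36.1, 18.4 and 30.2 CPM in the WT livers and 20.5, 21.6 and 25.6 CPM in the Het livers. Its genotypes overlapped, with WT 2 the lowest library (edgeR adjusted p 0.765).

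Transcription regulators tied to the growth hormone pattern numbered 15, all tested, with 11 positive and 4 negative log2 fold changes and a median of 0.14. Without Het 3 the split was 6 against 9 with a median of -0.023, and without WT 2 it was 8 against 7 with a median of 0.0026. None passed the adjusted threshold by edgeR, and 2 were lower at an unadjusted p under 0.05, against 3.77% of all genes. Onecut2, a homeobox factor gene, had 75.3, 93.6 and 86.1 CPM in the WT livers and 69.6, 68.2 and 74.0 CPM in the Het livers. Nr3c1, the glucocorticoid receptor gene, had 83.8, 90.4 and 78.0 CPM in the WT livers and 60.6, 78.8 and 67.2 CPM in the Het livers. Onecut1, the HNF6 gene that growth hormone induces, had 7.94, 5.55 and 22.3 CPM in the WT livers and 13.0, 3.13 and 14.05 CPM in the Het livers. Hhex, a homeobox gene of hepatocytes, had 55.4, 60.1 and 135 CPM in the WT livers and 105, 37.4 and 140.3 CPM in the Het livers. Both were chosen with their values known, and their 3 highest libraries were WT 3, Het 1 and Het 3, as for Cish and Socs2. The same libraries were the 3 highest for Foxa1, Foxa2, Foxa3, Hnf4a and Ihh, and not for the other regulators of the list, Onecut2 and Nr3c1 among them. How many of all tested genes share that order was not computed.

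Female-biased genes that depend on the growth hormone pattern were the next list. All 24 were tested and all 24 had a negative log2 fold change, none of them past the adjusted threshold by edgeR, with a median of -0.50, where 7413 of the 14606 tested genes were negative. At an unadjusted p under 0.05 there were 11 of 24 lower, against 3.77% of all genes, and in 6 every Het library was under every WT library, against 6.72%. DESeq2 called 2, Cyp3a16 and Cyp3a41a. At the other end of the list Abcd2 and Nipal1, chosen with their values known, had unadjusted p values of 0.683 and 0.804 (edgeR), with Het 3 and Het 2 respectively above every WT library. The list was drawn up with an earlier result of the same direction known, and several of its genes are near-identical paralogs that can share reads, so its count is no independent evidence. Leaving out 1 library gave 21 (without Het 1) to 24 negative genes, with 9 to 12 at an unadjusted p under 0.05, and leaving out both Het 2 and Het 3 gave 24 and 9. With no filter on low counts edgeR called 6 of them.

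Cyp3a16, a cytochrome P450 of young and female liver, had 50.5, 29.1 and 7.36 CPM in the WT livers and 1.76, 3.70 and 1.72 CPM in the Het livers. Cyp3a41a, a female-specific cytochrome, had 17.2, 12.7 and 11.1 CPM in the WT livers and 3.32, 7.43 and 2.68 CPM in the Het livers. Slc22a27, an organic anion transporter gene, had 41.9, 41.6 and 32.2 CPM in the WT livers and 24.3, 30.5 and 26.7 CPM in the Het livers. In these 3 genes no Het library reached the lowest WT library. Their libraries were not ordered as for Cish and Socs2, where WT 3 was high together with Het 1 and Het 3.

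Male-biased genes that depend on pulses of the hormone leaned the other way, with 17 of 18 tested, 14 positive and 3 negative log2 fold changes and a median of 0.25. Without WT 1 the split was 9 against 8 and without WT 3 it was 16 against 1, with medians of 0.19 and 0.82. At an unadjusted p under 0.05 there were 3 higher, Cyp2u1, Mup20 and Cyp4a12a, and 1 lower, Serpina12, against 3.39% and 3.77% of all genes. In 2 of the 17, Cyp2u1 and Mup20, every Het library exceeded every WT library, against 7.15%, and by edgeR 0 passed the adjusted threshold. DESeq2 called Cyp2u1, a fatty acid hydroxylase, at 2.45, 3.40 and 2.49 CPM in the WT livers and 4.44, 5.24 and 6.08 CPM in the Het livers. Mup20, a major urinary protein gene, had 7.27, 15.9 and 16.7 CPM in the WT livers and 26.6, 20.8 and 24.4 CPM in the Het livers. Cyp4a12a had at most 1.56 CPM in any library. Serpina12, the vaspin gene, had 15.4, 11.4 and 29.3 CPM in the WT livers and 13.3, 10.0 and 5.35 CPM in the Het livers.

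**Figure D4:**
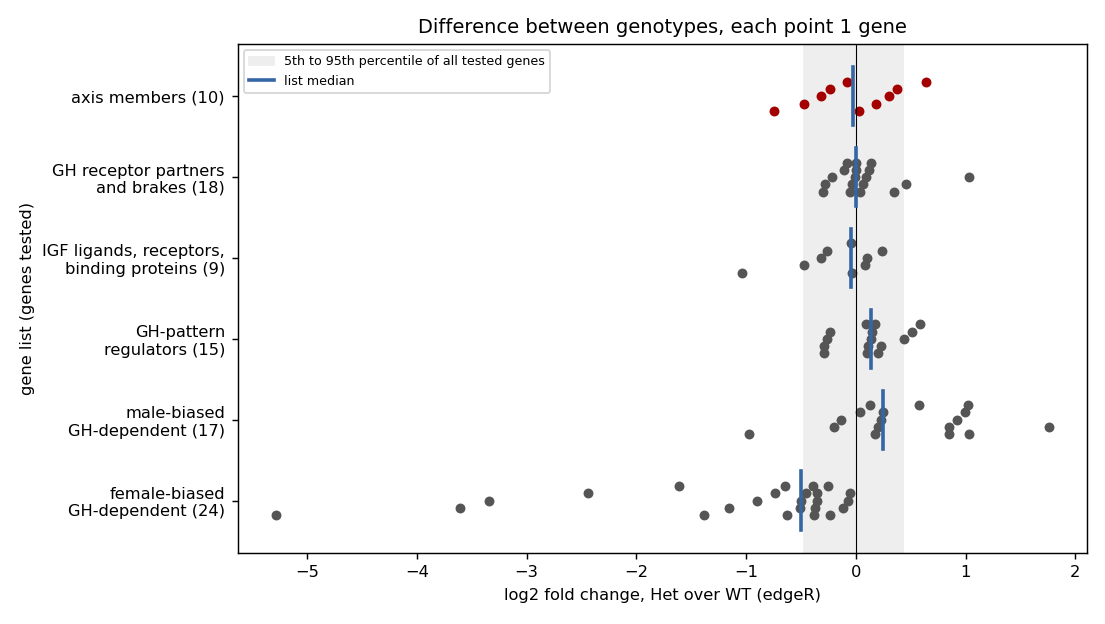
Log2 fold change of Het over WT (edgeR) for each tested gene of the axis and of 5 further lists, with each list's median as a bar and the 5th to 95th percentile of all tested genes (-0.476 to 0.428) shaded. Axis members lie on both sides of 0, and all 24 female-biased genes lie below it.

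Markers of other liver cells were read beside these values, and by edgeR 0 of them passed the adjusted threshold. Among the 10 hepatocyte markers 7 had a positive and 3 a negative log2 fold change (median 0.16). At an unadjusted p under 0.05 (edgeR) 1 was higher, against 3.39% of all genes, and 0 were lower, against 3.77%. It was Ttr, the transthyretin gene, 1.26-fold higher in Het at an unadjusted p of 0.0388 (edgeR). In 2 of the 10, Ttr and the albumin gene Alb, every Het library exceeded every WT library, against 7.15% of all genes. The 7 Kupffer cell markers summed to between 395 and 637 CPM in WT and between 288 and 532 CPM in Het, with 1 positive and 6 negative (median -0.22). Without WT 1 the split was 4 against 3 (median 0.05), and without WT 2 the median was -0.44. At an unadjusted p under 0.05 (edgeR) 1 of the 7 was lower, Marco, against 3.77% of all genes. Marco, a scavenger receptor of Kupffer cells, had 93.5, 69.9 and 53.8 CPM in the WT livers and 37.1, 10.9 and 28.1 CPM in the Het livers. It was the 1 marker with every Het library under every WT library, against 6.72% of all genes. The other Kupffer cell markers overlapped between genotypes, and Clec4f had the positive log2 fold change, at 0.10.

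The 7 endothelial markers summed to 305 to 356 CPM in WT and 286 to 371 CPM in Het (3 positive, 4 negative, median -0.10, and -0.23 to 0.05 without single libraries), and the smallest unadjusted p values were those of Pecam1 and Clec4g, at 0.439 and 0.479 (edgeR). Stellate markers summed to 314 to 358 and 291 to 323 CPM (2 of 7 positive, 5 negative, median -0.08), with Col3a1 lower and Rgs5 higher in Het at unadjusted p values of 0.0525 and 0.0614 (edgeR). The sums overlapped between genotypes, while 4 of the 7 stellate markers did not. Col3a1 and Dcn were below, against 6.72% of all tested genes, and Rgs5 and Des above, against 7.15%.

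The 5 cholangiocyte markers had a median of 0.02 (-0.29 to 0.10 without single libraries), with Spp1 and Krt19 at unadjusted p values of 0.152 and 0.632 (edgeR). The 6 leukocyte markers summed to 12.8 to 22.2 CPM in WT and 8.79 to 14.7 CPM in Het (1 positive, 5 negative, median -0.42). Ptprc, the pan-leukocyte gene, and Ms4a1, a B cell gene, were lower in Het at unadjusted p values of 0.0439 and 0.0397 (edgeR). For all genes the share lower at an unadjusted p under 0.05 was 3.77%, and both genes overlapped between genotypes. Ms4a1 was low, at 0.716, 1.33 and 0.589 CPM in the WT livers and 0.247, 0.383 and 0.604 CPM in the Het livers. Cd79a, another B cell gene, had an unadjusted p of 0.379 (edgeR). The 5 erythroid markers had a median of -0.44, which was 0.14 without WT 3. Of these Alas2 had a log2 fold change of 0.35 and Hbb-bs of -0.49, at unadjusted p values of 0.0694 and 0.208 (edgeR). None of the listed markers was at 0 in all libraries. Het 1, the highest library for Igfals and Igfbp2, also had the highest hepatocyte marker sum, at 183670 CPM, and the part of that in those values was not tested.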

How the data were processed

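Liver RNA of 3 WT and 3 Het mice was measured, and libraries were grouped by their titles. The authors deposited raw read counts per Ensembl gene, and per the submitters' processing notes the aligner STAR 2.5.3a, the counter HTSeq 0.6.1p1, the trimmer cutadapt 1.10, the demultiplexer bcl2fastq 2.17.1.14, DESeq2 1.16.1 and the build mm10 were used. Which annotation release and strand setting were used, and how reads with several matches were handled, is not given in the sources used here. Another 12 columns, of normalized values, were not used because their decimal marks were altered. The deposited median transcript length and the authors' deposited log2 fold changes and adjusted p-values were read with decimal commas restored, and the latter were turned to Het over WT.

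Genes were filtered with filterByExpr, which kept 99.955% of counts. Scaling was TMM, and genotype was tested with edgeR 4.0.16 (R 4.3.3, quasi-likelihood, two-sided, Benjamini-Hochberg over all tested genes, threshold 0.05). CPM are counts per 1000000 counts and use effective library sizes, and log2 CPM a prior count of 2. Standard errors come from the F statistic. Alternatives were DESeq2 1.42.0, limma-voom (limma 3.58.1), other scalings and filters, the replicate number as a block, a clock index and left-out libraries. The clock index was the mean log2 CPM of Dbp, Nr1d1, Per2 and Ciart minus that of Arntl, Npas2 and Clock. No 2 libraries agreed within sampling noise (chi-square per degree of freedom at least 43.5). Nothing in the labels beyond the count per genotype says that libraries came from separate mice, and p-values then measure the spread between these samples.

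Members, gene lists and tests were chosen with earlier results of these data known. Named were all members, Ptprd, Dbp and Arntl and, of each list, up to 4 tested genes by smallest unadjusted p under 0.05 (edgeR), or the 2 with the smallest p where none had one. Other names are marked where they appear, and 1 gene that the rule names is not reported here. Protein comparisons planned for paralogs were not analysed here.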

Additional observations from a re-analysis of the deposited data

How the results depend on the processing

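No member passed an adjusted p of 0.05 in the main fit or any of 15 alternatives. With no filter on low counts 2 members had an unadjusted p under 0.05, Igfals and Igfbp2, against 1 in the main fit, and leaving out single libraries gave 0 (without WT 1 or WT 2) to 3 (without Het 1: Stat5a, Stat5b and Igfbp1, all lower, and not Igfals). Igfals kept its sign throughout, with log2 fold changes from 0.25 to 0.59 and adjusted p values from 0.241 to 0.955. Over all genes, calls numbered 64 with DESeq2, 73 with no filter and 0 to 1 without single libraries. Genes at an unadjusted p under 0.05 numbered 2111 with the clock index as a covariate, 2092 with Het 2 and Het 3 left out and 686 to 1428 without single libraries, against 1045. With Het 2 and Het 3 left out the sign turned for Stat5a (0.052), Stat5b (0.026), Igfbp1 (0.61) and Bcl6 (-2.10), and with the clock index for Igfbp1 (0.11) and Bcl6 (-1.59). With limma-voom Bcl6 was at -0.025. Leaving out single libraries turned the sign of Igf1 (-0.11 to 0.10), Igfbp1 (-1.62 to 0.043), Socs2 (-1.24 to 0.85), Cish (-0.45 to 2.09) and Bcl6 (-1.11 to 1.09). Beyond the fewer libraries, the cause was not tested. Deviations of same-numbered libraries correlated at -0.068, 0.116 and 0.152, and those of differently numbered libraries at -0.298 to 0.175. These values cannot tell whether same-numbered libraries were paired. With the replicate block 0 genes were called, 1103 had an unadjusted p under 0.05 (edgeR), and Bcl6 was at -0.041. The block lowered the SE of Bcl6 from 0.84 to 0.16 and that of Cish, then at 0.69, from 0.91 to 0.315. It raised the SE of Ghr, Stat5a, Igf1, Igfals, Igfbp1 and Igfbp2. Counts per library for the members ran from 165 to 50887, and the parts of depth and of spread between libraries in the precision were not separated. With 3 libraries per genotype the intervals were wide for the 5 most variable members.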

Other observations

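The library WT 1 was the lowest of the 6 for 4 of the 10 members (Igf1, Igfals, Igfbp2 and Socs2). Het 3 was the lowest for 3 members, Het 1 for 2 and WT 2 for 1, and Het 1 was the highest for 4. How often WT 1 was lowest over all tested genes was not computed. Over those genes, pairs with WT 1 had a chi-square per degree of freedom of 112 to 224 and pairs without it 43.5 to 98.7. WT 1 thus stood apart over all tested genes and not only in the axis. Some genes of the other lists stood apart in WT 1 as well. They are named after their values were seen and given as values of single libraries. Egfr, the epidermal growth factor receptor gene, had 122 CPM in WT 1 and 218 to 568 CPM in the other libraries. Lifr, the leukemia inhibitory factor receptor gene, had 178 CPM in WT 1 and 339.9 to 458 CPM elsewhere. Slco1a1, a male-biased organic anion transporter gene, had 1.87 CPM in WT 1 and 73.8 to 243 CPM elsewhere, and Hsd3b5, a male-specific steroid dehydrogenase gene, had 0.0651 CPM in WT 1 and 1.84 to 11.9 CPM elsewhere. The male-biased list had its lowest median level in WT 1, at -0.93 on the log2 scale around each gene's mean. Female-biased genes went both ways. Sult2a1, a female-biased sulfotransferase gene, had 169 CPM in WT 1 and 0.215 to 26.7 CPM elsewhere, and Cyp17a1, a steroid hydroxylase gene, 296 CPM in WT 1 and 47.1 to 104 CPM elsewhere. Cyp3a44, also female-biased, had 20.8 CPM in WT 1 and 27.8 to 114 CPM elsewhere. Cyp2a4 had 190, 402 and 416 CPM in the WT livers and 107, 284 and 383 CPM in the Het livers, so Het 1 was lower than WT 1. The median level of the female-biased list was 0.38, 0.31 and 0.22 in the WT libraries and did not set WT 1 apart. Kupffer cell markers also had their highest sum in WT 1, at 637 CPM, and its part in these values was not tested.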
